A study of Mus musculus with 4 samples.

Results

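Ribosome biogenesis factors are the proteins that transcribe, trim, modify and fold ribosomal RNA and build it with ribosomal proteins into the small and large ribosomal subunits. A list of 53 such genes was matched by symbol to deposited tables of gene expression, and 52 of them had a row among 23700 rows with 23234 different symbols. Noc2l was not matched. The matched genes fall into 7 groups by role: 4 genes of RNA polymerase I transcription, 5 nucleolar scaffold and chaperone proteins, 4 proteins of box C/D and 3 of box H/ACA small nucleolar ribonucleoproteins (snoRNPs), 16 of the small subunit processome, 4 of late 40S maturation and 16 of 60S assembly.

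RNA was sequenced from splenic helper T cells (CD4 T cells) of C57BL/6 mice aged 43 weeks. In 2 libraries, KO 1 and KO 2, the genotype label is RIPK1-KO, which the study's design text describes as a loss of RIPK1 in T cells, and in 2 libraries, WT 1 and WT 2, it is wild type. RIPK1 is a kinase and scaffold of cell death and inflammatory signalling. For the Cre driver, the deleted exons and the alleles of the wild-type mice the sources used here give nothing, and all 4 titles carry an unexplained "Ctrl". Whether the libraries of a group stem from different mice is not in the labels, so the p-values reflect only how these libraries vary, and that variation may be technical. The comparison asks how these factors differ between the libraries labelled KO and those labelled WT.

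Ripk1 itself had 10.4 and 9.54 FPKM (fragments scaled to transcript length and to the mapped total of the library) in KO 1 and KO 2, against 5.61 and 5.60 FPKM in WT 1 and WT 2. The targeted gene was thus higher, not lower, in the libraries labelled KO (log2 change 0.73 ± 0.17, SE; adjusted p = 0.0262 by limma), so every direction here is one between libraries as labelled. That call was lost with trimmed-mean scaling (log2 change 0.31, adjusted p = 0.222), with quantile normalization (0.28, adjusted p = 0.257) and after a transcript-length trend was removed (0.13, adjusted p = 0.626). A whole-gene FPKM need not show a deletion of some exons. Depth, estimated from the spacing of low values for an assumed fragment of 200 nt, was 17600000 to 22100000 fragments, so that a transcript of 2 kb at 1 FPKM rested on 35.2 to 44.2 fragments. The helper T cell markers Cd4, Cd3e, Cd3g, Cd3d, Cd5 and Cd28 were present in every library. Cd4, Cd3e and Cd5 were higher in the libraries labelled KO as deposited (log2 changes 1.18, 1.01 and 0.89, limma adjusted p 0.0173, 0.0262 and 0.0276). With trimmed-mean scaling Cd4 was still higher (0.70, adjusted p = 0.0488) and Cd3d was lower (−0.76, adjusted p = 0.0422). Of the cytotoxic T cell markers, Cd8a stayed at or below 0.764 FPKM, while Cd8b1 stood at 10.3 and 11.3 FPKM in KO 1 and KO 2, against 10.9 and 10.5 FPKM in WT 1 and WT 2. In the fit to all genes, 25.6% of 11074 tested rows were higher and 1% lower in the libraries labelled KO, and the median tested gene had a log2 change of 0.38, called the median gene from here on. Changes are given on the log2(FPKM + 1) scale, KO minus WT, and a gene passed at an adjusted p under 0.05 over all tested rows.

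Ribosomes are made mainly in the nucleolus, where RNA polymerase I transcribes the long ribosomal RNA precursor. Small nucleolar RNAs, held in box C/D or box H/ACA snoRNPs, guide its methylation and pseudouridylation, and the small subunit processome folds and cleaves the part that becomes the small subunit. T cells raise this activity when antigen drives them to grow and divide, and the transcription factor MYC is known to raise the expression of many of these genes.

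Few of these factors passed the test as the values were deposited. Of the 52 genes, which all passed the expression filter, 3 (5.77%) were higher in the libraries labelled KO, against 25.6% of all tested rows, and 0 were lower, against 1%. At an unadjusted limma p under 0.05, 9 (17.3%) were higher, against 39.5% of all tested rows, and 2 (3.85%) lower, against 2.84%. The 3 were Tcof1, Polr1a and Mybbp1a, each tied to ribosomal RNA transcription. The genes' median log2 change was 0.14, which is 0.24 below the median gene, and 37 of 52 (71.2%) lay below the median gene. Both KO libraries exceeded both WT libraries for 24 genes (46.2%), against 58.5% of all tested rows. Both lay below for 9 genes (17.3%), against 12.1% of all tested rows, and the groups overlapped for the other 19 (36.5%).

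**Figure D1:**
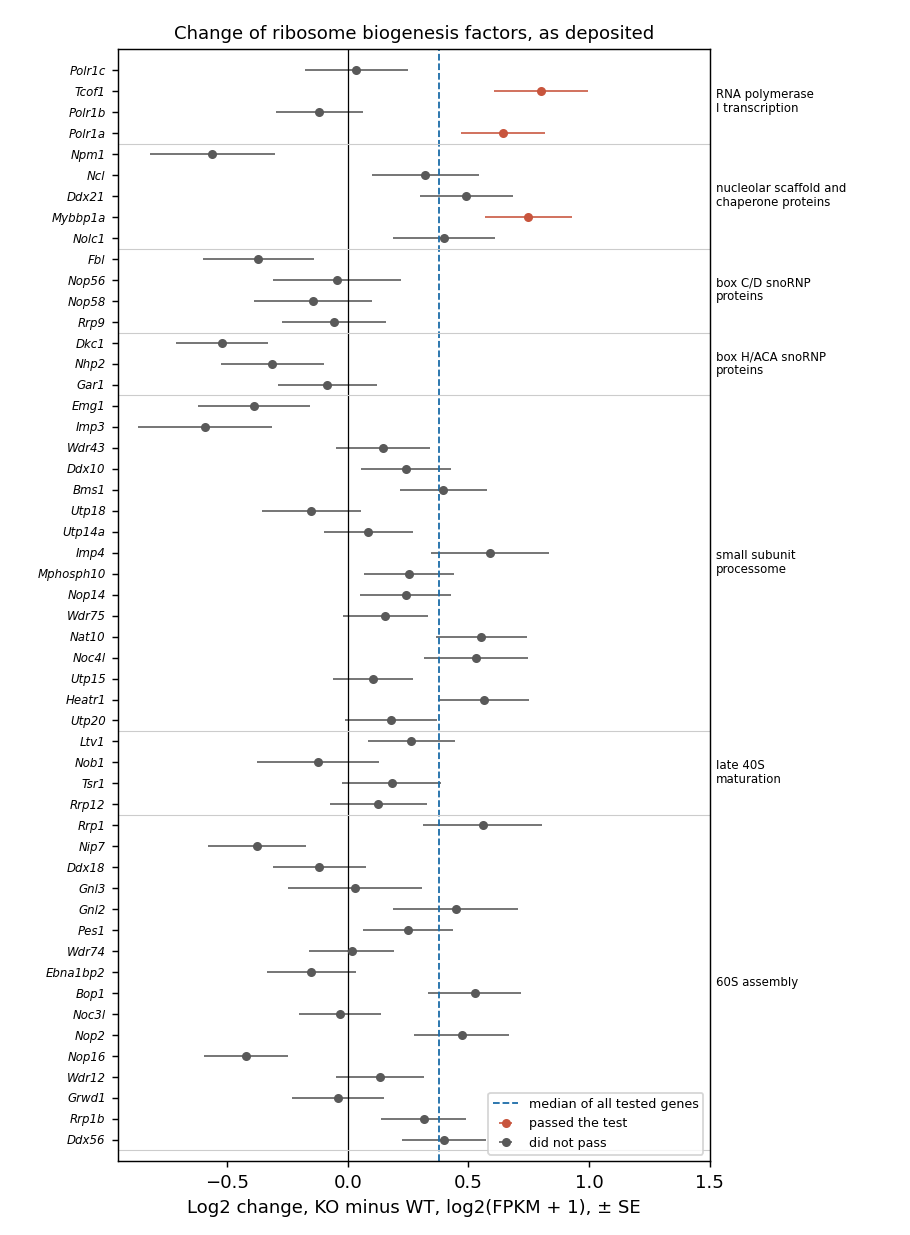
Log2 change of each ribosome biogenesis factor, KO minus WT on the log2(FPKM + 1) scale, with its SE (2 libraries in each group), ordered by role and, within a role, by mean level. The 3 genes that passed the test lie to the right of the median of all tested genes (dashed line), and all 7 snoRNP proteins lie to the left of 0.

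The direction depended on how the libraries were scaled. With trimmed-mean scaling, which sets the median gene near 0 (−0.01), none of the 52 was higher, against 4.68% of all tested rows, and 8 (15.4%) were lower, against 5.2% of all tested rows. At an unadjusted limma p under 0.05, 0 were then higher, against 16.6% of all tested rows, and 18 (34.6%) lower, against 18.4%. The 8 were Npm1, Fbl, Dkc1, Nhp2, Imp3, Emg1, Nop16 and Nip7, and none of them passed as deposited. The calls of Tcof1, Polr1a and Mybbp1a were lost with this scaling (adjusted p 0.155 to 0.337). Quantile normalization called 0 higher, against 1.62% of all tested rows, and 0 lower, against 0.695%, with 1 higher and 19 (36.5%) lower at an unadjusted limma p under 0.05, against 16.2% and 17.6%. The distance of the genes' median from the median gene was −0.27 with trimmed-mean scaling and −0.29 with quantile normalization, against −0.24 as deposited.

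These genes were well expressed. Their median level was 12.5 FPKM, against 6.85 FPKM for all tested rows, and 40 of 52 (76.9%) lay above that median. Mean levels ran from 2.62 FPKM for Utp20 to 477 FPKM for Npm1. FPKM summed over the 52 genes was 1309 in KO 1 and 1334 in KO 2, against 1326 in WT 1 and 1662 in WT 2. Npm1 alone made up 388 FPKM of the sum in KO 1 and 379 in KO 2, against 497 in WT 1 and 644 in WT 2.

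**Figure D2:**
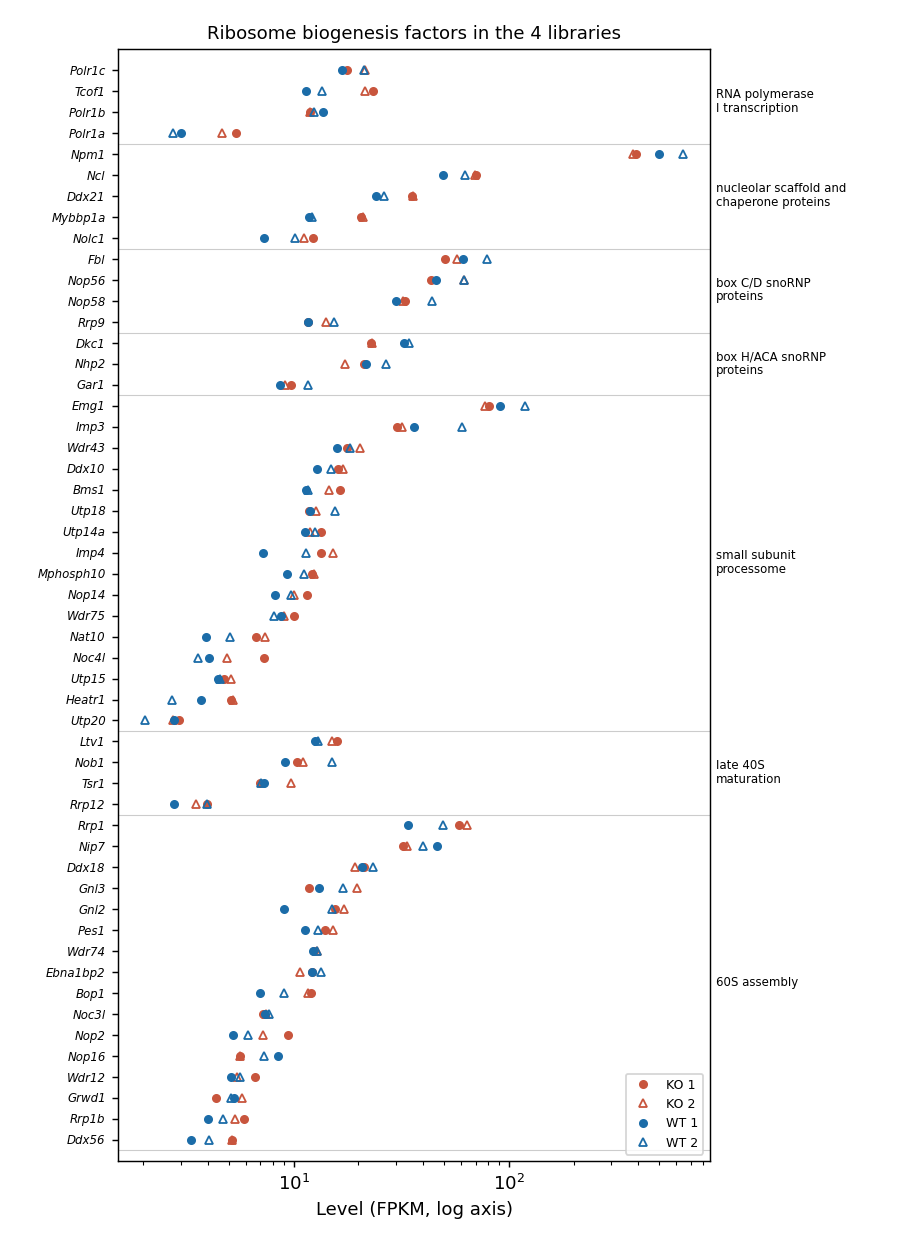
Level of each of the 52 genes in the 4 libraries (FPKM, log axis), in the same order as the plot of changes. Tcof1, Polr1a and Mybbp1a have both KO libraries right of both WT libraries, Npm1, Fbl and Dkc1 have both left of them, and WT 2 stands highest for Npm1, Imp3 and Emg1.

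The MYC and MAX E-box, CACGTG, was looked for in the RefSeq promoter windows (build GRCm38.p6), which run from 250 bases before to 50 bases after the start site. CACGTG is its own reverse complement, so 1 search covers both strands. Of 46 genes with a window, 10 (21.7%) held the motif, against 927 of 7756 tested genes with a window (12%) and 2187 of all 27025 windows (8.09%). The 10 were Grwd1, Imp4, Ltv1, Mybbp1a, Nop2, Pes1, Tsr1, Utp18, Utp20 and Wdr43. Their median log2 change was 0.22 (−0.15 to 0.75), against 0.06 for the 36 without the motif (−0.59 to 0.64). Both KO libraries lay above both WT libraries for 5 of the 10 (50%) and 16 of the 36 (44.4%), both under the 58.5% of all tested rows. They lay below for 0 of the 10 and 7 of the 36 (19.4%), against 12.1% of all tested rows. All of the 10 but Imp4 (873 nt) have a coding length above 1335 nt, the median of all tested rows, and the change ran with coding length, as described below. With the coding-length trend removed, the changes of the 10 lay below 0 except in Imp4 (0.31) and Mybbp1a (0.03). The motif was not tested apart from length. This describes letters in a window, not binding.

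Stretches around the motif are printed here for 5 of the 10, chosen to show Mybbp1a, which passed as deposited, Nop2 and Pes1 of 60S assembly, Ltv1 of late 40S maturation, and Utp18, the lowest of the 10. Each is read 5′ to 3′ on the gene's strand, with up to 10 bases on either side and the motif in capitals. Counting the start site as base 1, the motif begins at base 41 in Mybbp1a (chr11:72441357-72441376, plus strand), at base 3 in Pes1 (chr11:3963967-3963992, plus strand) and at base 29 in Ltv1 (chr10:13193094-13193119, minus strand). It begins 60 bases before the start site in Nop2 (chr6:125131813-125131838, plus strand) and 20 bases before it in Utp18 (chr11:93885771-93885796, minus strand).
Mybbp1a: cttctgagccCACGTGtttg
Nop2: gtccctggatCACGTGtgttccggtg
Pes1: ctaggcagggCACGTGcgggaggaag
Ltv1: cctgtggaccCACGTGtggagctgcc
Utp18: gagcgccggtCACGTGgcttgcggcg
Around the same letters, the log2 changes of these 5 genes ran from 0.75 in Mybbp1a to −0.15 in Utp18.

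RNA polymerase I transcription had its largest differences in its regulator and its catalytic subunit. Tcof1, which encodes treacle, a nucleolar protein needed for ribosomal DNA transcription, had 23.4 and 21.5 FPKM in KO 1 and KO 2, against 11.4 and 13.5 FPKM in WT 1 and WT 2. Its log2 change was 0.80 ± 0.19 (SE, limma adjusted p = 0.028). Polr1a, the largest subunit of RNA polymerase I, had 5.41 and 4.66 FPKM in KO 1 and KO 2, against 2.98 and 2.74 FPKM in WT 1 and WT 2. Its log2 change was 0.64 ± 0.17 (SE, limma adjusted p = 0.0379), and for both genes the groups were apart. Polr1c, a subunit shared by RNA polymerases I and III, had 17.7 and 21.4 FPKM in KO 1 and KO 2, against 16.8 and 21.3 FPKM in WT 1 and WT 2. Here the second library of each group was the higher one and the groups overlapped. Polr1b, the second-largest subunit, had 11.9 FPKM in both KO libraries, against 13.6 and 12.4 FPKM in WT 1 and WT 2 (log2 change −0.12 ± 0.18 SE, adjusted p = 0.639). Polr1b and Polr1c thus lay below the median gene, Polr1b by 0.50 and Polr1c by 0.34 on the log2 scale.

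Nucleolar scaffold and chaperone proteins were split. Mybbp1a, a nucleolar MYB-binding protein of ribosomal RNA synthesis and processing whose E-box is printed above, had 20.5 and 21.1 FPKM in KO 1 and KO 2, against 11.8 and 12.1 FPKM in WT 1 and WT 2. Its log2 change was 0.75 ± 0.18 (SE, limma adjusted p = 0.028), and replicates of each group lay close together. Ddx21, an RNA helicase of ribosomal RNA transcription and processing, had 35.6 and 35.9 FPKM in KO 1 and KO 2, against 24.0 and 26.3 FPKM in WT 1 and WT 2. The groups were apart, but its log2 change of 0.49 ± 0.19 did not pass (SE, limma adjusted p = 0.1). Ncl, nucleolin, had 70.3 and 69.5 FPKM in KO 1 and KO 2, against 49.6 and 62.5 FPKM in WT 1 and WT 2 (adjusted p = 0.298). Nolc1, a chaperone of snoRNPs, had a log2 change of 0.40 ± 0.21 (SE, adjusted p = 0.19).

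Npm1, nucleophosmin, the most abundant of the 52 and a histone and ribosome chaperone, went the other way. It had 388 and 379 FPKM in KO 1 and KO 2, against 497 and 644 FPKM in WT 1 and WT 2. Both KO libraries lay below both WT libraries, which themselves differed by more than the KO libraries did. As deposited its log2 change of −0.56 ± 0.26 did not pass (SE, limma adjusted p = 0.145). It was lower with trimmed-mean scaling (log2 change −1.04, adjusted p = 0.0257) and after a trend with transcript length was removed (−0.81, adjusted p = 0.0496). Npm1 has processed pseudogene copies in the mouse genome, and the sources used here do not say how shared reads were counted.

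As groups, the snoRNP core proteins lay lowest against the median gene as deposited. All 4 box C/D and all 3 box H/ACA proteins had a negative log2 change as deposited, while 76.7% of all tested rows had one above 0. None of them passed, against 25.6% of all tested rows higher and 1% lower. The median stood 0.48 below the median gene for box C/D and 0.69 below it for box H/ACA. With the coding-length trend removed, box H/ACA changes were −0.94 (Dkc1), −0.41 (Nhp2) and −0.30 (Gar1). Late 40S maturation then had −0.59 (Rrp12), −0.49 (Nob1), −0.40 (Tsr1) and −0.14 (Ltv1), so box H/ACA was no longer below that group. Fbl, fibrillarin, the methyltransferase of box C/D snoRNPs, had 50.2 and 57.4 FPKM in KO 1 and KO 2, against 61.5 and 79.0 FPKM in WT 1 and WT 2. The groups were apart, with a log2 change of −0.37 ± 0.23 as deposited (SE, limma adjusted p = 0.254) and −0.84 with trimmed-mean scaling (adjusted p = 0.0422). Nop58, a structural core protein beside fibrillarin, had 32.9 and 32.3 FPKM in KO 1 and KO 2, against 29.8 and 43.9 FPKM in WT 1 and WT 2. Its KO libraries lay between the WT libraries, and leaving out WT 2 turned the change to 0.13. Nop56, the partner of Nop58, and Rrp9, a protein of the U3 snoRNP, overlapped between groups as well.

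Dkc1, dyskerin, the pseudouridine synthase of box H/ACA snoRNPs and a telomerase component, had 23.0 and 23.1 FPKM in KO 1 and KO 2, against 32.6 and 34.4 FPKM in WT 1 and WT 2. The groups were apart and replicates lay close together, but the log2 change of −0.52 ± 0.19 missed the threshold as deposited (SE, adjusted p = 0.0825). Dkc1 was lower with trimmed-mean scaling (−0.99, adjusted p = 0.026), after the transcript-length trend was removed (−0.92, adjusted p = 0.0432) and after a coding-length trend was removed (−0.94, adjusted p = 0.0149). Nhp2, an RNA-binding core protein of the same particles, had 21.3 and 17.4 FPKM in KO 1 and KO 2, against 21.7 and 26.8 FPKM in WT 1 and WT 2. KO 1 and WT 1 nearly met, and the log2 change was −0.31 ± 0.22 as deposited (SE, adjusted p = 0.3) and −0.77 with trimmed-mean scaling (adjusted p = 0.045). Gar1 overlapped between groups (log2 change −0.08 ± 0.20 SE, adjusted p = 0.774).

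**Figure D3:**
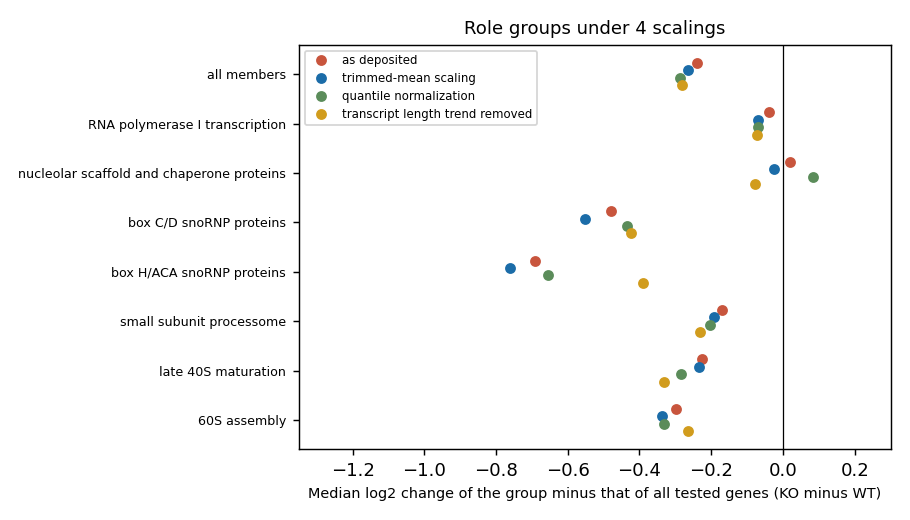
Median log2 change of each role group minus the median of all tested genes (KO minus WT), as deposited and under 3 other scalings. Box C/D and box H/ACA proteins lie lowest under all 4, at −0.48 and −0.69 as deposited, while the scaffold and chaperone group changes sign between scalings.

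The genes for the RNA partners of these proteins could not be compared. The reference annotation places 21 snoRNA genes inside 7 of the 52 genes, and 11 of them had a row. Of these, 10 were listed at 0 in at least 1 library and 2 in all 4, with values up to 2226 FPKM for Snord69 (inside Gnl3) in WT 2. Snora75, inside Ncl, was above 0 in every library, with 110 and 236 FPKM in KO 1 and KO 2, against 78.9 and 142 FPKM in WT 1 and WT 2. At lengths of 68 to 133 nt a single fragment carries a large FPKM.

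Small subunit processome genes spanned log2 changes from −0.59 to 0.59. As deposited 0 of 16 passed in either direction, against 25.6% of all tested rows higher and 1% lower. Heatr1, a processome protein also needed for ribosomal RNA transcription, had 5.13 and 5.24 FPKM in KO 1 and KO 2, against 3.71 and 2.72 FPKM in WT 1 and WT 2. Nat10, the acetyltransferase of small subunit RNA, had 6.66 and 7.33 FPKM in KO 1 and KO 2, against 3.90 and 5.05 FPKM in WT 1 and WT 2. For both the KO libraries lay above the WT libraries, with log2 changes of 0.56 ± 0.19 for Heatr1 and 0.55 ± 0.19 for Nat10 (SE), short of the threshold (limma adjusted p = 0.0671 for Heatr1 and 0.0693 for Nat10). Imp3 and Emg1 lay on the other side. Imp3, a protein that in yeast helps the U3 snoRNA pair with the precursor, had 30.1 and 31.8 FPKM in KO 1 and KO 2, against 36.4 and 60.8 FPKM in WT 1 and WT 2. Emg1, a pseudouridine methyltransferase of small subunit RNA, had 81.1 and 77.4 FPKM in KO 1 and KO 2, against 91.2 and 119 FPKM in WT 1 and WT 2. WT 2 was well above WT 1 for both, and both were lower with trimmed-mean scaling (Imp3 log2 change −1.06, adjusted p = 0.0432; Emg1 −0.87, adjusted p = 0.0348).

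Imp4, which forms a complex with Imp3 and Mphosph10, had 13.3 and 15.2 FPKM in KO 1 and KO 2, against 7.21 and 11.5 FPKM in WT 1 and WT 2. Its log2 change was 0.59 ± 0.24 (SE, adjusted p = 0.114), against −0.59 ± 0.28 for Imp3 (SE, adjusted p = 0.152), so these partners stood at opposite ends of the group and neither passed. Mphosph10, the third protein of the complex, had 12.2 and 12.5 FPKM in KO 1 and KO 2, against 9.29 and 11.1 FPKM in WT 1 and WT 2. Of the other 10 processome genes, 8 lay below the median gene. A log2 change above 0 was found for 9 of the 10, as for 76.7% of all tested rows, and Utp18 had −0.15 ± 0.20 (SE, adjusted p = 0.598).

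None of the 4 genes of late 40S maturation passed as deposited, against 25.6% of all tested rows higher and 1% lower. Ltv1, an assembly factor that leaves the small subunit late and whose E-box is also printed above, had 15.8 and 15.1 FPKM in KO 1 and KO 2, against 12.5 and 12.9 FPKM in WT 1 and WT 2. The groups were apart, with a log2 change of 0.26 ± 0.18 (SE, adjusted p = 0.292) that was −0.19 with trimmed-mean scaling. Tsr1, a GTPase-like factor of the small subunit, had 6.93 and 9.76 FPKM in KO 1 and KO 2, against 7.27 and 7.02 FPKM in WT 1 and WT 2. KO 2 stood above the other 3 libraries, and 32.3% of the exon bases of Tsr1 overlap Srr in the reference annotation, so its reads may be shared. Nob1, the nuclease that makes the final cut of small subunit RNA, and Rrp12, an export factor, overlapped between groups.

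Of the 16 genes of 60S assembly, 0 passed as deposited, against 25.6% of all tested rows higher and 1% lower. Both KO libraries lay above both WT libraries for 7 (43.8%, against 58.5% of all tested rows) and below for 2 (12.5%, against 12.1%). Bop1, which forms the PeBoW complex with Pes1 and Wdr12, had 12.0 and 11.7 FPKM in KO 1 and KO 2, against 6.99 and 8.97 FPKM in WT 1 and WT 2. Its log2 change was 0.53 ± 0.19 (SE, limma adjusted p = 0.0842), against 0.25 ± 0.19 for Pes1 (adjusted p = 0.333) and 0.13 ± 0.18 for Wdr12 (adjusted p = 0.595). Rrp1, a nucleolar protein of large subunit RNA processing and the most abundant of this group, had 58.4 and 63.8 FPKM in KO 1 and KO 2, against 34.1 and 49.5 FPKM in WT 1 and WT 2. The WT libraries differed by more than the KO libraries did, and the change did not pass (log2 change 0.56 ± 0.25 SE, adjusted p = 0.132). Nop16, a nucleolar protein of large subunit assembly, had 5.62 and 5.65 FPKM in KO 1 and KO 2, against 8.49 and 7.30 FPKM in WT 1 and WT 2. Nop16 was the lowest of the group as deposited (−0.42 ± 0.18 SE, adjusted p = 0.116), and it was lower with trimmed-mean scaling (−0.84, adjusted p = 0.048). Nip7, a factor of large subunit RNA processing, had 32.1 and 33.7 FPKM in KO 1 and KO 2, against 46.1 and 39.9 FPKM in WT 1 and WT 2, and was also lower with that scaling (−0.85, adjusted p = 0.0479). Gnl3, nucleostemin, a GTPase of proliferating cells, had 11.7 and 19.8 FPKM in KO 1 and KO 2, against 13.1 and 16.9 FPKM in WT 1 and WT 2, and the groups overlapped.

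Other ribosome biogenesis genes, listed by function, also lay below the median gene more often than above it, 85 of 115. Of the 115, all of which passed the filter, 9 (7.83%) were higher and 1 (0.87%) lower in the libraries labelled KO as deposited, against 25.6% and 1% of all tested rows. With trimmed-mean scaling 0 were higher, against 4.68%, and 12 (10.4%) lower, against 5.2%. Their median lay 0.19 below the median gene. Mdn1, the giant ATPase that remodels the large subunit precursor, had 6.86 and 5.64 FPKM in KO 1 and KO 2, against 3.02 and 2.64 FPKM in WT 1 and WT 2 (log2 change 0.92 ± 0.18 SE, limma adjusted p = 0.0187). Ubtf, the upstream binding factor of RNA polymerase I, had 32.1 and 32.7 FPKM in KO 1 and KO 2, against 16.5 and 21.2 FPKM in WT 1 and WT 2 (log2 change 0.76 ± 0.21 SE, adjusted p = 0.0393). The KO libraries were above the WT libraries for both, as for Ddx24, a helicase gene (log2 change 0.98 ± 0.24 SE, adjusted p = 0.0291). The others that were higher were Nop9 (listed as 2610027L16Rik), Efl1 (listed as Eftud1), Senp3, Nvl, Ddx54 and Exosc10. Znhit3, an assembly factor of box C/D snoRNPs, was the 1 gene lower, with 5.09 and 4.26 FPKM in KO 1 and KO 2, against 7.28 and 9.65 FPKM in WT 1 and WT 2 (log2 change −0.73 ± 0.20 SE, adjusted p = 0.0395). Of 7 tested regulators tied to the nucleolus (MYC, its partners, and p53 with its ligase), Mxd4, a MYC antagonist, was higher as deposited (log2 change 0.82 ± 0.19 SE, adjusted p = 0.0266), but not with trimmed-mean scaling (0.37, adjusted p = 0.176). Myc had 9.84 and 18.4 FPKM in KO 1 and KO 2, against 8.76 and 13.8 FPKM in WT 1 and WT 2, and the groups overlapped.

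The change ran with gene length. Across the 52 genes the log2 change had a Spearman correlation of 0.63 with coding length (n = 52 genes), against 0.39 across all tested rows with a coding length (n = 9356). After the transcript-length trend was removed, it was still 0.40 for the 52 genes. With mean FPKM the deposited change had a Spearman correlation of −0.36 for the 52 genes, against −0.05 across all 11074 tested rows. The genes share the same 4 libraries, so these are descriptions. Split at 1335 nt, the median coding length of all tested rows and a split chosen after the values were seen, the 14 shorter genes had a median log2 change of −0.23 and the 38 longer ones 0.25. Split at the same length, all shorter rows had a median of 0.24 and all longer rows 0.57. Both KO libraries lay below both WT libraries for 7 of the 14 shorter genes (50%), against 14.2% of all shorter rows, and for 2 of the 38 longer genes (5.26%), against 5.94% of all longer rows. Tcof1, Polr1a and Mybbp1a have coding lengths of 4068, 5151 and 4032 nt, while Npm1 has 876 nt, Fbl 981 nt and Imp3 552 nt. Of the shorter genes, Imp4 (873 nt) went the other way, with a log2 change of 0.59. Wdr12 (0.13), Polr1c (0.04) and Wdr74 (0.02) also lay above 0.

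When the coding-length trend of all genes was removed, an alternative chosen after the data were seen, none of the 52 was higher, against 5.83% of 9356 rows, and 6 (11.5%) were lower, against 4.51%. At an unadjusted limma p under 0.05, 0 were then higher, against 15.3%, and 22 (42.3%) lower, against 13.7%. The 6 were Polr1b, Npm1, Fbl, Dkc1, Emg1 and Ddx18, and the changes of Tcof1, Polr1a and Mybbp1a were 0.08, −0.13 and 0.03. The transcript-length trend, removed in the same way, left 0 higher, against 1.9% of 9930 rows, and 2 lower (3.85%), against 0.826%. Those 2 were Npm1 and Dkc1. What gave the length trend was not tested.

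**Figure D4:**
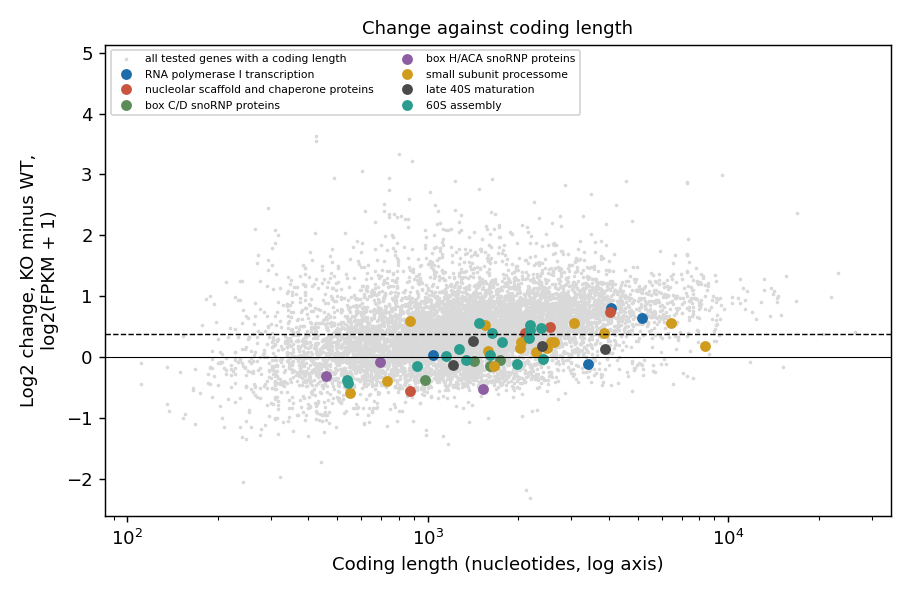
Log2 change (KO minus WT, log2(FPKM + 1)) against coding length (nucleotides, log axis) for tested rows with a coding length (grey, 9356) and for the ribosome biogenesis factors, coloured by role. The dashed line marks the median gene at 0.38. Of the genes of short coding length, Imp3, Npm1 and Fbl lie below 0 and Imp4 lies above the line at 0.59. Tcof1, Polr1a and Mybbp1a lie above the line at the long end.

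Markers of dividing cells lay on the other side of the median gene. Summed over 8 such genes, the level was 103 and 47.6 FPKM in KO 1 and KO 2, against 19.4 and 16.7 FPKM in WT 1 and WT 2. Of the 8, 7 were higher in the libraries labelled KO as deposited, against 25.6% of all tested rows, and 5 with trimmed-mean scaling, against 4.68%. Only 2 were higher with quantile normalization, against 1.62%, and 2 with the transcript-length trend removed, against 1.9%. Mki67, Top2a, Bub1b, Ccnb2 and Cdk1 were higher with the coding-length trend removed, against 5.83%. Mki67, a protein of dividing cells, had 21.7 and 9.39 FPKM in KO 1 and KO 2, against 0.939 and 0.937 FPKM in WT 1 and WT 2. Relative to all genes and to each gene's own mean, the median of the 52 ribosome biogenesis genes was −0.14 in KO 1 and −0.06 in KO 2, against 0.12 in WT 1 and 0.11 in WT 2 (log2). The same measure for the dividing-cell markers was 1.11 and 0.26 in KO 1 and KO 2, against −0.60 and −0.67 in WT 1 and WT 2. KO 1 had the most signal of dividing cells, and the ribosome biogenesis genes lay lowest in it. The part of dividing cells in the ribosome biogenesis values was not tested.

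**Figure D5:**
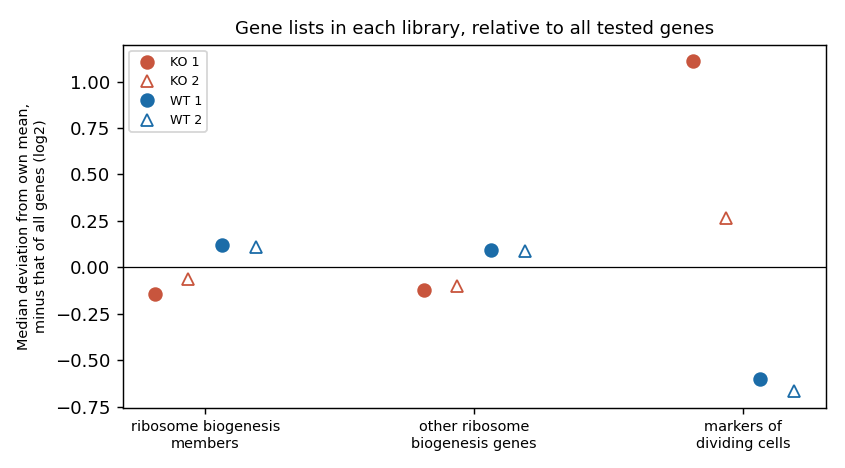
For each gene list and library, the median deviation of its genes from their own mean over the 4 libraries, minus the same for all tested genes (log2). Ribosome biogenesis genes, members and other listed genes alike, lie just below 0 in both KO libraries and just above it in both WT libraries, and dividing-cell markers lie in the opposite order.

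Markers of other cells also differed. The summed level of 5 B cell markers was 8.17 and 8.85 FPKM in KO 1 and KO 2, against 4.88 and 4.63 FPKM in WT 1 and WT 2, with Pax5 at 0 in WT 2. Of these 5, 2 were tested and 1 was higher. The 6 myeloid markers summed to 6.19 and 7.16 FPKM in KO 1 and KO 2, against 2.03 and 3.17 FPKM in WT 1 and WT 2, with Cd14 at 0 in 3 libraries. Of these 6, 2 were tested. Lyz2 was higher as deposited (limma adjusted p = 0.0339), with 2.99 and 4.38 FPKM in KO 1 and KO 2, against 0.164 and 1.53 FPKM in WT 1 and WT 2. Cd68 did not pass (adjusted p = 0.0992). Itgam, not tested, averaged 0.481 FPKM in the KO libraries, against 0.505 FPKM in the WT libraries. Rows of 4 globin genes and Alas2, which mark red cells and their precursors, summed to 389 and 318 FPKM in KO 1 and KO 2, against 6.33 and 98.9 FPKM in WT 1 and WT 2. The 4 rows tested were each higher as deposited, and 0 of them passed with trimmed-mean scaling or quantile normalization. Hbb-b2 has no length here and was not in the length fits. Of the rest, 0 passed with the transcript-length trend removed. Both rows of Hba-a2 passed with the coding-length trend removed (limma adjusted p 0.0389 and 0.046), and Alas2 did not. The 3 NK cell markers summed to 2.57 and 3.16 FPKM in KO 1 and KO 2, against 4.45 and 4.82 FPKM in WT 1 and WT 2, and the 3 platelet markers to 1.16 to 1.68 FPKM over all 4. The part of these cells was not tested either. In bulk RNA, fewer cells of a type and less RNA per cell cannot be told apart.

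The 3 passing genes also rested on few libraries. A fit without 1 library leaves a lone library in a group. Only the size of the change is therefore given here, and counts stand beside those of all rows further below. The log2 changes of Tcof1, Polr1a and Mybbp1a stayed between 0.55 and 0.91 without any 1 library.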

How the data were processed

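Per the file headers, the authors deposited 1 table of FPKM values per gene symbol for each of 4 libraries. Per the submitters' processing notes, Bowtie 0.12.2 and build mm8 were used. No source used here names the program that computed FPKM or its annotation. Each library took 200 ng of total RNA, per the labels' protocols. FPKM divides by length and library total, so lengths and a few abundant genes affect every value. Low values were within 0.05 of whole fragments in 53.3% to 60.5% of cases, too few to recover counts.

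Rows with at least 1 FPKM in at least 2 libraries were tested on log2(FPKM + 1) with limma 3.58.1 (R 4.3.3), with an intensity trend, two-sided, and Benjamini-Hochberg adjustment over all 11074 rows. Alternatives were trimmed-mean scaling (30% and 5% trims), quantile normalization, pseudocounts of 0.1 and 5, other filters, each library left out, a replicate block, and removal of lowess trends with transcript or coding length (GENCODE M21). The genes and lists were chosen with earlier results of these data known. Values per library are given for the 2 genes of smallest p and the highest level in each role, the 3 lowest against the median gene, and up to 3 genes per other list; Polr1b, Ncl, Imp4, Mphosph10, Nip7, Gnl3 and Myc were added after their values were seen. Scripts were tested on simulated data. A few marker genes are left out of the lists and not reported here.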

Additional observations from a re-analysis of the deposited data

How the results depend on the processing

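With each library left out in turn, genes higher in the libraries labelled KO numbered 9 to 2173 over all rows (9 without WT 1, 1610 without WT 2, 1825 without KO 1), 0 to 1 among the 52 and 0 to 3 among other listed genes; lower ones numbered 1 to 132 (1 without WT 1, 73 without WT 2), 0, and 0 to 1. These limma fits assume that a lone library varies like the pair of the other group. Without a filter, 0 genes passed in either direction in all 3 sets. At a mean of at least 5 FPKM, 1562 rows were higher and 89 lower. Of the 52, 2 were higher, Mybbp1a and Tcof1, and 0 lower. Genes of the 52 under that mean, such as Polr1a (3.95 FPKM) and Heatr1 (4.20 FPKM), were not tested there. Of the other listed genes, 6 were higher and 0 lower. Counts of higher and lower rows were 518 and 576 with trimmed-mean scaling, 179 and 77 with quantile normalization, 189 and 82 without the transcript-length trend, and 545 and 422 without the coding-length trend. Under these 4, 0 of the 52 were higher and 8, 0, 2 and 6 lower, and 0 other listed genes were higher and 12, 2, 1 and 11 lower. At an adjusted p under 0.1, 4077 of the 11074 rows were higher and 267 lower. Of the 52, 6 were then higher and 1 lower, and of the other listed genes 18 were higher and 3 lower. The replicate numbers are not said to mark a shared litter or day. Over all tested rows, the difference between WT 1 and WT 2 correlated at 0.11 with that between KO 1 and KO 2. With the replicate block, 3909 of the 11074 rows were higher and 230 lower. Of the 52, 7 were then higher and 0 lower, and of the other listed genes 16 were higher and 2 lower.

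The median of the 52 minus that of all tested genes was −0.24. It was −0.29 with quantile normalization, −0.30 with a pseudocount of 0.1 and −0.13 with a pseudocount of 5. At a mean of at least 5 FPKM, which leaves out Polr1a and other low genes of the 52, it was −0.32. Without the transcript-length and coding-length trends it was −0.28 and −0.37. With a library left out it was −0.28 to −0.20. Without a filter it was 0.11, but the reference was then the median of all 23700 rows. Of these, 5466 to 6320 were at 0 in a given library, so this value has another reference than the rest. Of the 33 genes above 0 as deposited, 21 were below 0 with trimmed-mean scaling and 20 with quantile normalization. Without the transcript-length trend 23 were below 0, and without the coding-length trend 28. None of the other 19 turned sign under these 4. The median gene fell from 0.38 as deposited to −0.01 with trimmed-mean scaling, −0.02 with quantile normalization and 0.01 without the transcript-length trend. With most changes lowered, genes a little above 0 were likely to turn and genes below 0 were not. These counts therefore do not show that the genes below 0 were the more stable. For 19 genes the change was followed under every setting that tested them, which leaves out Polr1a and Heatr1 at a mean of at least 5 FPKM. With trimmed-mean scaling and quantile normalization, the changes that turned sign were those of Polr1c (−0.42 and −0.34), Ltv1 (−0.19 and −0.16) and Tsr1 (−0.25 and −0.27). Without the transcript-length trend they were −0.0033 for Polr1a, −0.12 for Polr1c, −0.047 for Ddx21, −0.050 for Heatr1, −0.094 for Ltv1 and −0.26 for Tsr1, and without the coding-length trend −0.13 for Polr1a, −0.29 for Polr1c, −0.11 for Ddx21, −0.25 for Heatr1, −0.11 for Nat10, −0.14 for Ltv1, −0.40 for Tsr1 and −0.016 for Bop1. With 1 library left out, Polr1c ran from −0.13 (without WT 1) through −0.093 (without KO 2) to 0.20 (without WT 2), Tsr1 from −0.038 (without KO 2) to 0.40 (without KO 1), and Nop58 reached 0.13 (without WT 2). The cause of these turns was not tested. Depth of 1 FPKM is about 35.2 to 44.2 fragments per 2 kb, so Utp20, the lowest of the 52, still rested on many fragments.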
